A study of Cricetiscus sungorus with 12 samples.

Results

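Neuropeptide precursors other than those of the arcuate feeding circuit, and the granins and enzymes that package and cut them, were followed through 36 genes of the hamster hypothalamus, 25 peptide precursors and 11 granins and processing genes. The members were given as a list of mouse GeneIDs paired with gene symbols, with no measured value in the rule, and all 36 were among the 17191 GeneIDs of the deposited tables. The study sequenced polyA RNA of the hypothalamus of 12 adult Djungarian hamsters, a species that passes the winter with bouts of daily torpor, a controlled fall of metabolism and body temperature lasting some hours. It asked which transcripts differ between long and short photoperiod and between normothermia and torpor.

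A neuropeptide is made as a long precursor that enters the secretory granule, where the convertases PC1/3 (Pcsk1) and PC2 (Pcsk2) cut it at pairs of basic residues, carboxypeptidase E (Cpe) trims the ends and peptidylglycine alpha-amidating monooxygenase (Pam) amidates many of the products. Granins such as chromogranins and secretogranins are acidic proteins that help the granule to form, and some are themselves precursors of peptides. In the hypothalamus vasopressin and oxytocin come from the large cells of the paraventricular and supraoptic nuclei, orexin and melanin-concentrating hormone from the lateral hypothalamus, and vasoactive intestinal peptide, gastrin-releasing peptide, prokineticin 2 and neuromedin S from the suprachiasmatic clock.

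There were 4 hamsters in each of 3 groups, no genetic alteration, and adults of both sexes throughout. LP-NT hamsters stayed in long photoperiod (16 h of light and 8 h of dark) and were normothermic. SP-NT hamsters had been moved to short photoperiod (8 h of light and 16 h of dark) and were normothermic on a day without torpor, although they had shown torpor before. SP-HT hamsters came from the same short photoperiod and were hypothermic in a spontaneous bout of daily torpor. All were sampled at about ZT 4, that is 4 h after lights on, and were perfused with buffered saline. Only the short photoperiod hamsters carried implanted temperature transmitters, so the implant and the photoperiod cannot be told apart. LP-NT and SP-NT each held 2 males and 2 females by label, and SP-HT held 3 males and 1 female. Sequencing depth, as the total of expected counts, ran from 21732663 to 22710560 for LP-NT hamsters, from 22860110 to 24186918 for SP-NT hamsters and from 20204979 to 23018123 for SP-HT hamsters.

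A sample and a direction call for care. SP-NT replicate 19 is labelled male but had 0 counts of GeneID 22290, which had between 342 and 462 counts in the other 6 labelled males and 0 in each of the 5 labelled females. It also had 0 counts of GeneID 20592, against between 979 and 1699 in those 6 males. In all 4 SP-HT hamsters both records were as the sex labels have it. The sign of a torpor difference is given for the samples labelled SP-HT over those labelled SP-NT. The tables printed with the study carry the opposite sign for torpor, and whether labels or signs are in error was not tested. Were the SP-HT and SP-NT labels exchanged, the comparisons of SP-NT and of SP-HT with LP-NT would be exchanged too. All results below take the labels as given. Values below follow the order of the replicates, which is 01, 02, 03 and 05 for LP-NT, 19, 36, 37 and 38 for SP-NT, and 02, 10, 26 and 33 for SP-HT.

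Levels of different genes were compared in TPM, in which counts are divided by transcript length and scaled to the same total in every sample. The granins and processing genes were among the most abundant transcripts, with a median of 316 TPM over the 11 genes, against 18.1 TPM over the 25 precursors and 18.5 TPM over all 17191 genes. Cpe (GeneID 12876) was highest, with a mean of 1389 TPM over the 12 hamsters, 41st among all genes, and a range from 1259 to 1505 TPM. It was followed by Pcsk1n (GeneID 30052, proSAAS, an inhibitor of PC1/3) at 967 TPM, Oxt (GeneID 18429) at 674 TPM, Scg2 (GeneID 20254, secretogranin II) at 667 TPM and Avp (GeneID 11998) at 577 TPM. The ranges of Oxt, from 403 to 914 TPM, Scg2, from 588 to 757 TPM, and Avp, from 228 to 907 TPM, overlapped, so the order of these 3 was not set apart from the spread between hamsters. Pcsk1n, from 860 to 1179 TPM, overlapped Oxt and Avp as well.

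Then came Chga (GeneID 12652, chromogranin A) at 390 TPM, Chgb (GeneID 12653, chromogranin B) at 339 TPM, Scg5 (GeneID 20394, 7B2, the chaperone of PC2) at 316 TPM, Vgf (GeneID 381677, a granin-like precursor) at 311 TPM and Pam (GeneID 18484) at 280 TPM. Scg3 (GeneID 20255, secretogranin III, which anchors other granins to the granule membrane) had a mean of 183 TPM. Among the precursors below Avp, Tac1 (GeneID 21333, substance P) had 165 TPM, Hcrt (GeneID 15171, orexin) 132 TPM, Penk (GeneID 18619, enkephalins) 117 TPM and Cck (GeneID 12424, cholecystokinin) 113 TPM. In all, 16 members had a mean of 100 TPM or more, 9 lay between 10 and 100 TPM, 7 between 1 and 10 TPM and 4 below 1 TPM. Of the 25 precursors, 6 reached 100 TPM, and of the 11 granins and processing genes, 10 did. The exception among the latter was Pcsk1 (GeneID 18548) at 44.5 TPM, about a level with the 50.6 TPM of Pdyn, while Pcsk2 (GeneID 18549) had 120 TPM.

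**Figure D1:**
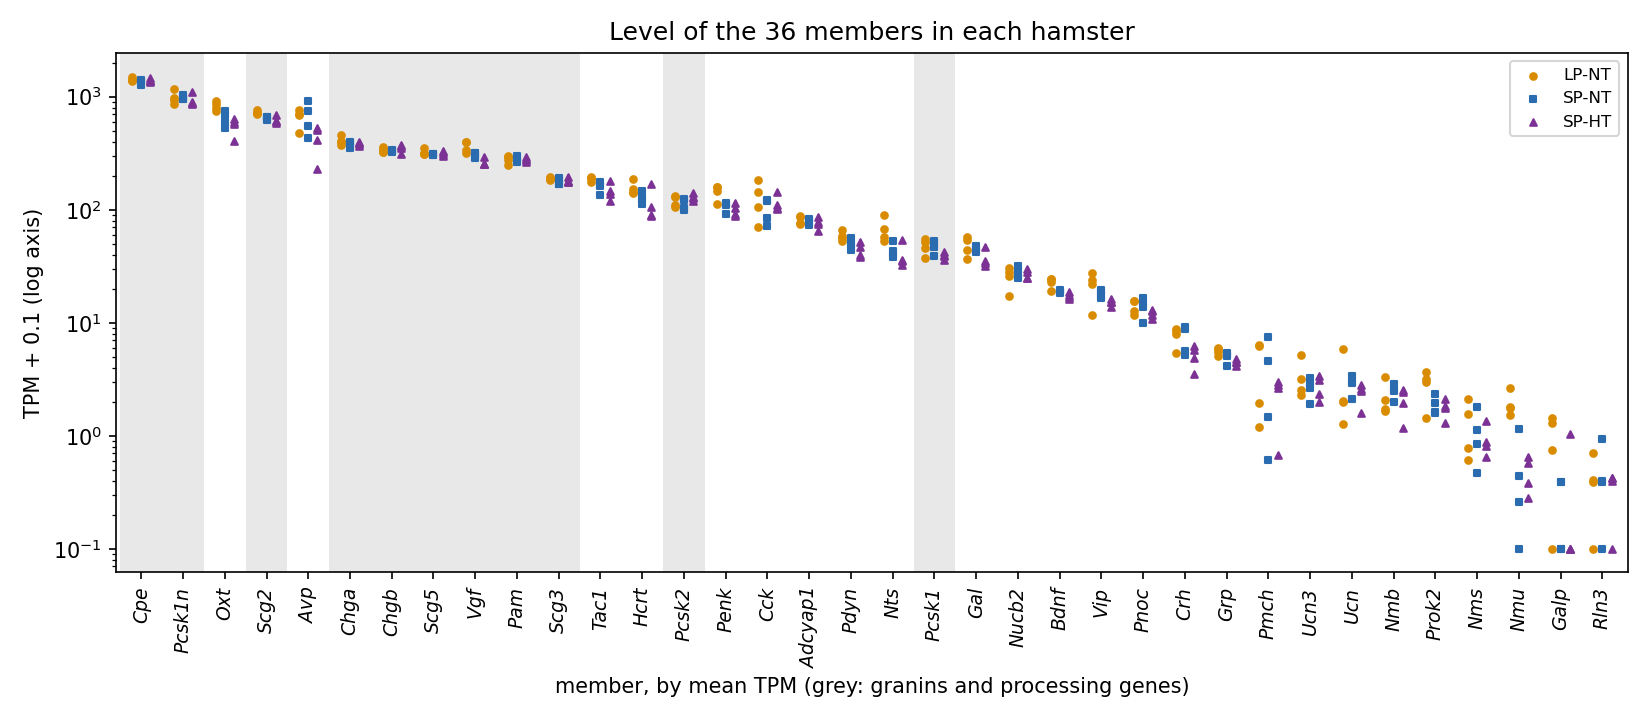
TPM of each of the 36 members in each of the 12 hamsters, with 0.1 added and on a log axis, ordered by mean TPM. Colours and symbols mark LP-NT, SP-NT and SP-HT, and grey bands mark the 11 granins and processing genes, 10 of which have a mean above 100 TPM.

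Summed over the 25 precursors, TPM was 2547, 2655, 2167 and 2514 in the LP-NT hamsters, 1914, 2271, 1805 and 2468 in the SP-NT hamsters, and 1782, 1345, 1776 and 2011 in the SP-HT hamsters. Every SP-HT sum was below every LP-NT sum, and SP-NT overlapped both. Avp and Oxt supplied between 46.9% (SP-HT replicate 10) and 67.1% (SP-NT replicate 38) of this sum. With these 2 genes left out, the sum was between 939 and 1064 TPM in LP-NT, between 778 and 848 TPM in SP-NT and between 681 and 914 TPM in SP-HT, so the LP-NT samples were then the 4 highest. The summed TPM of the 11 granins and processing genes was 5201 ± 254 for LP-NT hamsters, 4923 ± 104 for SP-NT hamsters and 4891 ± 202 for SP-HT hamsters (SD, n = 4 each), with overlapping groups. These sums are descriptions and carry no test.

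Each pair of groups was compared by edgeR's quasi-likelihood test over all genes with at least 10 counts in the 8 samples, and p-values were adjusted over all genes tested, with a threshold of 0.05. The comparisons share samples, since SP-NT enters photoperiod and torpor, and the third pair, SP-HT against LP-NT, reuses the samples of both. In photoperiod (SP-NT against LP-NT) 35 members were tested and 0 passed the threshold, against 0.0370% of all 16199 genes tested. At an unadjusted p below 0.05 there were 11 of 35 members (31.4%), against 4.84% of all genes, and DESeq2 called 0 members after adjustment, beside 33 of all 16199 genes. All 11 had lower values in SP-NT. In 6 of 35 members (17.1%) every SP-NT hamster lay below every LP-NT hamster in CPM, counts scaled to the normalized depth of the sample, against 1.72% of all genes, and 0 members lay wholly above, against 1.72% of all genes. Nmu is among both the 11 and the 6, and it reached the filter through LP-NT, the group where it was high (41 counts against 9 in SP-NT). Values of the log2 fold change were below 0 for 22 of 24 precursors and 11 of 11 granins and processing genes, against 50.8% of all genes, with medians of -0.27 and -0.11 beside -0.0024 over all genes. Galp (10 counts in LP-NT against 2 in SP-NT) and Nmu are among the 22. Both reached the filter through LP-NT, so the filter favoured their sign. With the stricter filter filterByExpr, 19 of 21 precursors were below 0, with a median of -0.26.

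These directions were counted again under every other setting. With all hamsters kept, the number of members below 0 was 29 of 35 with limma voom, 31 of 36 with limma on log2(TPM + 1) and 33 of 35 with DESeq2. With 1 hamster left out it was between 28 of 34 (without LP-NT replicate 05) and 33 of 35 (without SP-NT replicate 38). Without LP-NT replicate 01 the medians were -0.15 for precursors and -0.055 for granins and processing genes, and limma voom gave -0.17 and -0.075. Over all members the median of -0.13 went to -0.087 without that hamster, to -0.22 without LP-NT replicate 02 and to -0.23 without SP-NT replicate 38.

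In torpor (SP-HT against SP-NT) 34 members were tested and edgeR called 0 of them, against 2.40% of all 16195 genes. DESeq2 called 2 of 34, Vgf and Pcsk2, beside 1017 of all 16195 genes. At an unadjusted p below 0.05 there were 5 of 34 members (14.7%), against 18.4% of all genes. These were 1 of 23 precursors (4.35%) and 4 of 11 granins and processing genes (36.4%). 1 member lay wholly lower in SP-HT, Vip, against 7.39% of all genes, and 1 wholly higher, Pcsk2, against 4.74% of all genes. The precursors and the granule genes had medians of opposite sign, a log2 fold change of -0.12 over 23 precursors and 0.051 over 11 granins and processing genes, beside -0.0027 over all genes. Of the precursors 19 of 23 were below 0, and of the granins and processing genes 4 of 11, against 50.6% of all genes. With 1 hamster left out these counts were between 17 and 20 of 23 and between 3 and 4 of 11. Leaving out 1 hamster took the precursor median to between -0.070 (without SP-HT replicate 26) and -0.21 (without SP-HT replicate 33). On the scale of log2(TPM + 1), limma took the granin and processing median to 0.0048, and the median over all genes moved down too, to -0.038. Both signs stayed under every setting, while the sizes depended on the hamsters and the scale.

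In the third pair (SP-HT against LP-NT) 3 of 35 members (8.57%) passed the threshold, against 1.37% of all 16157 genes tested, namely the precursors Oxt and Nmu and the granin Vgf, all lower in SP-HT. DESeq2 called 7 members, Oxt, Penk, Pdyn, Nts, Bdnf, Vgf and Scg2, all lower in SP-HT, beside 706 of all genes by the same tool, and gave no adjusted p for Nmu. At an unadjusted p below 0.05 there were 14 of 35 members (40.0%), all lower, against 15.1% of all genes. In 8 of 35 members (22.9%) the SP-HT hamsters lay wholly below the LP-NT hamsters, against 6.83% of all genes, and 0 lay wholly above, against 3.81% of all genes. Median log2 fold changes were -0.38 over 24 precursors and -0.016 over 11 granins and processing genes, beside -0.00086 over all genes. The sign of the latter median was not stable, at 0.019 without LP-NT replicate 01, 0.0053 without SP-HT replicate 02 and 0.011 with limma voom. Rln3 failed the filter on low counts in all 3 comparisons and Galp in torpor, and the others passed in all 3. Galp and Nmu passed mostly through their LP-NT counts, so the group in which they were high also brought them into the test. Both are among the 14 members above and in the precursor median, which was -0.36 over the 20 precursors tested with filterByExpr. That filter leaves out Nmu, after which the calls of this pair were Oxt and Vgf.

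**Figure D2:**
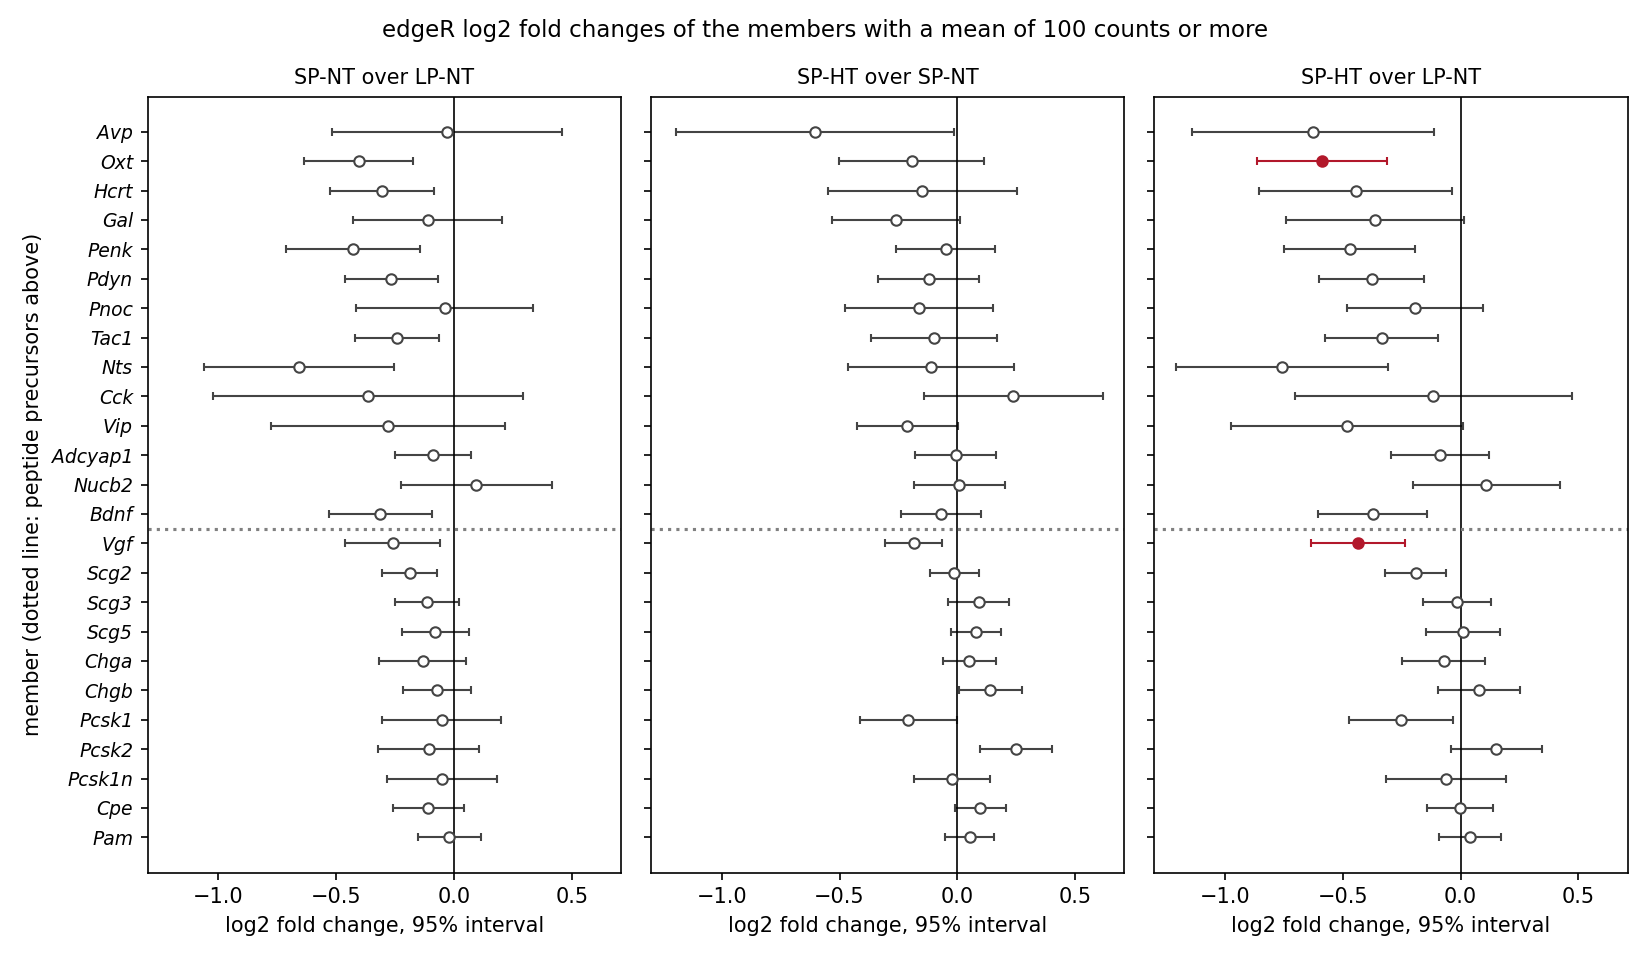
Log2 fold changes from edgeR with 95% intervals for the 25 members with a mean of 100 counts or more per sample, in the 3 comparisons named above each panel. Filled red points passed the adjusted threshold (Oxt and Vgf in SP-HT over LP-NT), and the dotted line separates peptide precursors (above) from granins and processing genes (below).

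Vasopressin and oxytocin are the hormones of the magnocellular cells, the former acting on water retention by the kidney and the latter on parturition and milk ejection. Oxt measured 154, 166, 137 and 153 CPM in LP-NT, 107, 125, 95.1 and 133 CPM in SP-NT, and 114, 73.7, 105 and 110 CPM in SP-HT. All 8 short photoperiod hamsters lay below the lowest LP-NT hamster, and SP-NT and SP-HT overlapped. In bulk tissue, fewer cells that make a peptide and less of its RNA per cell cannot be told apart. From LP-NT to SP-HT Oxt fell by 0.59 on the log2 scale (standard error 0.12, adjusted p = 0.0493 in edgeR). For SP-NT over LP-NT the log2 fold change was -0.41 (standard error 0.10, adjusted p = 0.866 in edgeR), and for SP-HT over SP-NT it was -0.19 (95% interval -0.50 to 0.11). The call between SP-HT and LP-NT held in edgeR without SP-HT replicate 10 (adjusted p = 0.0497) and was lost without any 1 of the other 7 hamsters (adjusted p from 0.0683 to 0.135), while the log2 fold change in those 7 fits stayed between -0.65 and -0.54. With all hamsters it was lost in edgeR with RLE factors (adjusted p = 0.0512), sex as a covariate (0.0609) or the effective length offset (0.0706), and in limma on log2(TPM + 1) (0.0979) and log2(TPM + 0.1) (0.0944).

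Avp measured 258, 265, 165 and 241 CPM in LP-NT, 191, 260, 147 and 312 CPM in SP-NT, and 148, 81.8, 191 and 179 CPM in SP-HT. SP-HT replicate 10 was lowest and SP-NT replicate 38 highest, and each pair of groups overlapped. In edgeR the log2 fold change was -0.60 for SP-HT over SP-NT (standard error 0.27, adjusted p = 0.262 in edgeR), -0.63 for SP-HT over LP-NT (standard error 0.23, adjusted p = 0.231 in edgeR) and -0.030 for SP-NT over LP-NT (95% interval -0.52 to 0.46). Without SP-HT replicate 10 the torpor value was -0.40. Across the 12 hamsters, Avp and Oxt varied together in log2 CPM, with a Pearson r of 0.835 (permutation p = 0.00097, 0.00291 after Benjamini-Hochberg adjustment over the 6 pairs tested) and a Spearman rho of 0.692 (permutation p = 0.0153, adjusted 0.0458). Without the 2 hamsters farthest from the median of Avp r was 0.737, and with each group centred on its mean it was 0.931 (permutation p = 0.00279 within groups, adjusted 0.00837). Without SP-HT replicate 10 alone r was 0.683 and missed the threshold. The part of dissection in this correlation, and in that of Hcrt with Pdyn, was not tested. Oxt TPM over Avp TPM was 1.29 ± 0.202 for LP-NT hamsters, 1.02 ± 0.181 for SP-NT hamsters and 1.39 ± 0.317 for SP-HT hamsters (SD, n = 4 each), with overlapping groups.

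**Figure D3:**
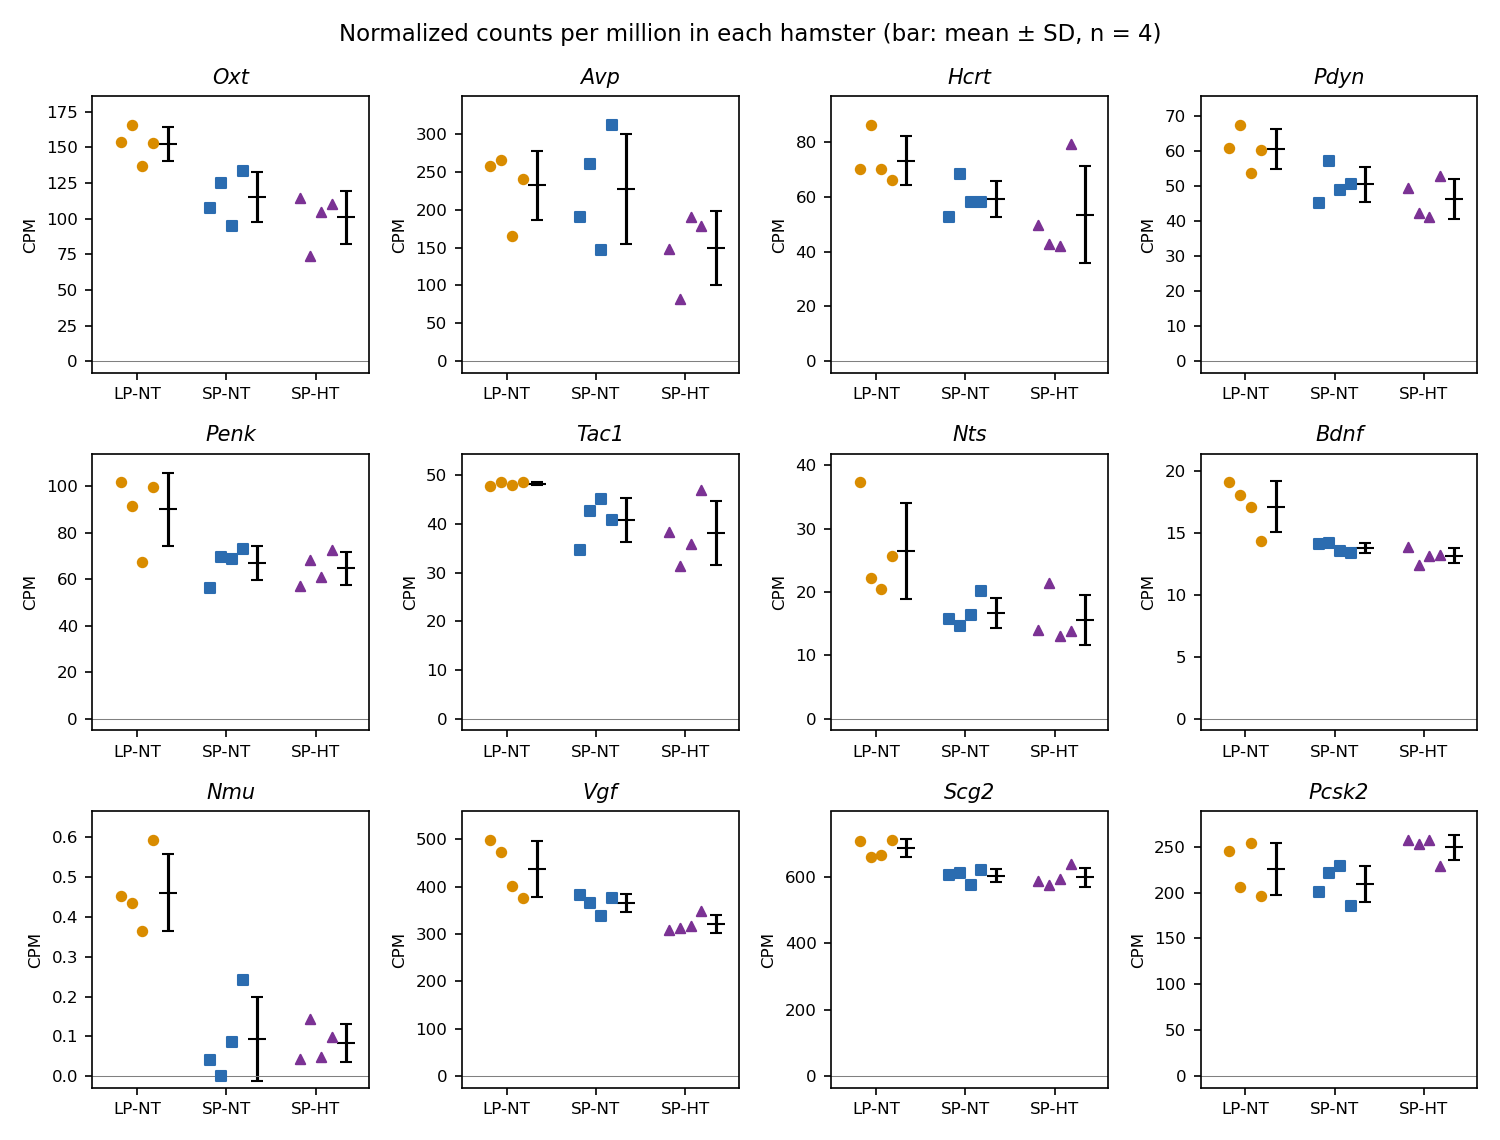
Normalized CPM of 12 members in each hamster, with 1 panel per gene, symbols for the hamsters of LP-NT, SP-NT and SP-HT and the mean ± SD (n = 4) beside them. The 4 LP-NT values of Oxt, Tac1, Nts, Bdnf, Nmu and Scg2 all lie above the 4 SP-NT values.

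Orexin, the product of Hcrt, keeps animals awake and promotes arousal and feeding. Hcrt measured 70.1, 86.3, 70.1 and 66.3 CPM in LP-NT, 52.6, 68.3, 58.1 and 58.1 CPM in SP-NT, and 49.8, 42.7, 42.2 and 79.4 CPM in SP-HT. In SP-HT 3 hamsters lay below every other hamster, and SP-HT replicate 33 lay above every SP-NT hamster and 3 of the LP-NT hamsters. Its log2 fold change was -0.31 for SP-NT over LP-NT (standard error 0.10, adjusted p = 0.913 in edgeR), -0.45 for SP-HT over LP-NT (standard error 0.19, adjusted p = 0.284 in edgeR) and -0.15 for SP-HT over SP-NT (95% interval -0.55 to 0.25). Without SP-HT replicate 33 the value for SP-HT over LP-NT was -0.70, past the threshold (adjusted p = 0.0415 in edgeR). This was the only 1 of the 8 fits with a hamster left out to pass. Over these fits the value went up to -0.34 and the adjusted p in edgeR up to 0.522.

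Melanin-concentrating hormone, from Pmch (GeneID 110312), promotes feeding and sleep. The record was near the limit of detection, with 3, 2, 9 and 8 expected counts in the LP-NT hamsters, 1, 12, 2 and 7 in the SP-NT hamsters and 4, 3, 4 and 1 in the SP-HT hamsters. Its mean TPM of 3.15 ranked 28th among the members and 13150th among all genes, whereas Hcrt from the same region ranked 1424th. The effective length of the Pmch record was between 135 and 235 bases, so its TPM rests on few reads of a short record, and whether the record holds the whole hamster transcript was not tested. Hcrt and Pmch were not correlated in a way the test could show (r = 0.0184, permutation p = 0.954, rho = -0.0559, permutation p = 0.87), and the sign turned with the setting.

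Dynorphin, from Pdyn (GeneID 18610), is an opioid that orexin cells also make. Pdyn measured 60.8, 67.5, 53.8 and 60.3 CPM in LP-NT, 45.1, 57.1, 49.0 and 50.6 CPM in SP-NT, and 49.3, 42.3, 41.0 and 53.0 CPM in SP-HT. All SP-HT hamsters lay below all LP-NT hamsters, while SP-NT overlapped both. Pdyn followed Hcrt across the 12 hamsters, with r = 0.897 (permutation p = 0.00011, adjusted 0.00066) and rho = 0.846 (permutation p = 0.00101, adjusted 0.00606). Without the 2 hamsters farthest from the median of Hcrt r was 0.801, and with the groups centred on their means it was 0.828 (permutation p = 0.00096 within groups, adjusted 0.00576). SP-HT replicate 33 was the highest hamster of its group in both genes. The log2 fold change of Pdyn was -0.27 for SP-NT over LP-NT (standard error 0.088, adjusted p = 0.913 in edgeR) and -0.38 for SP-HT over LP-NT (standard error 0.10, adjusted p = 0.101 in edgeR), the latter called by DESeq2 (adjusted p = 0.0225).

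**Figure D4:**
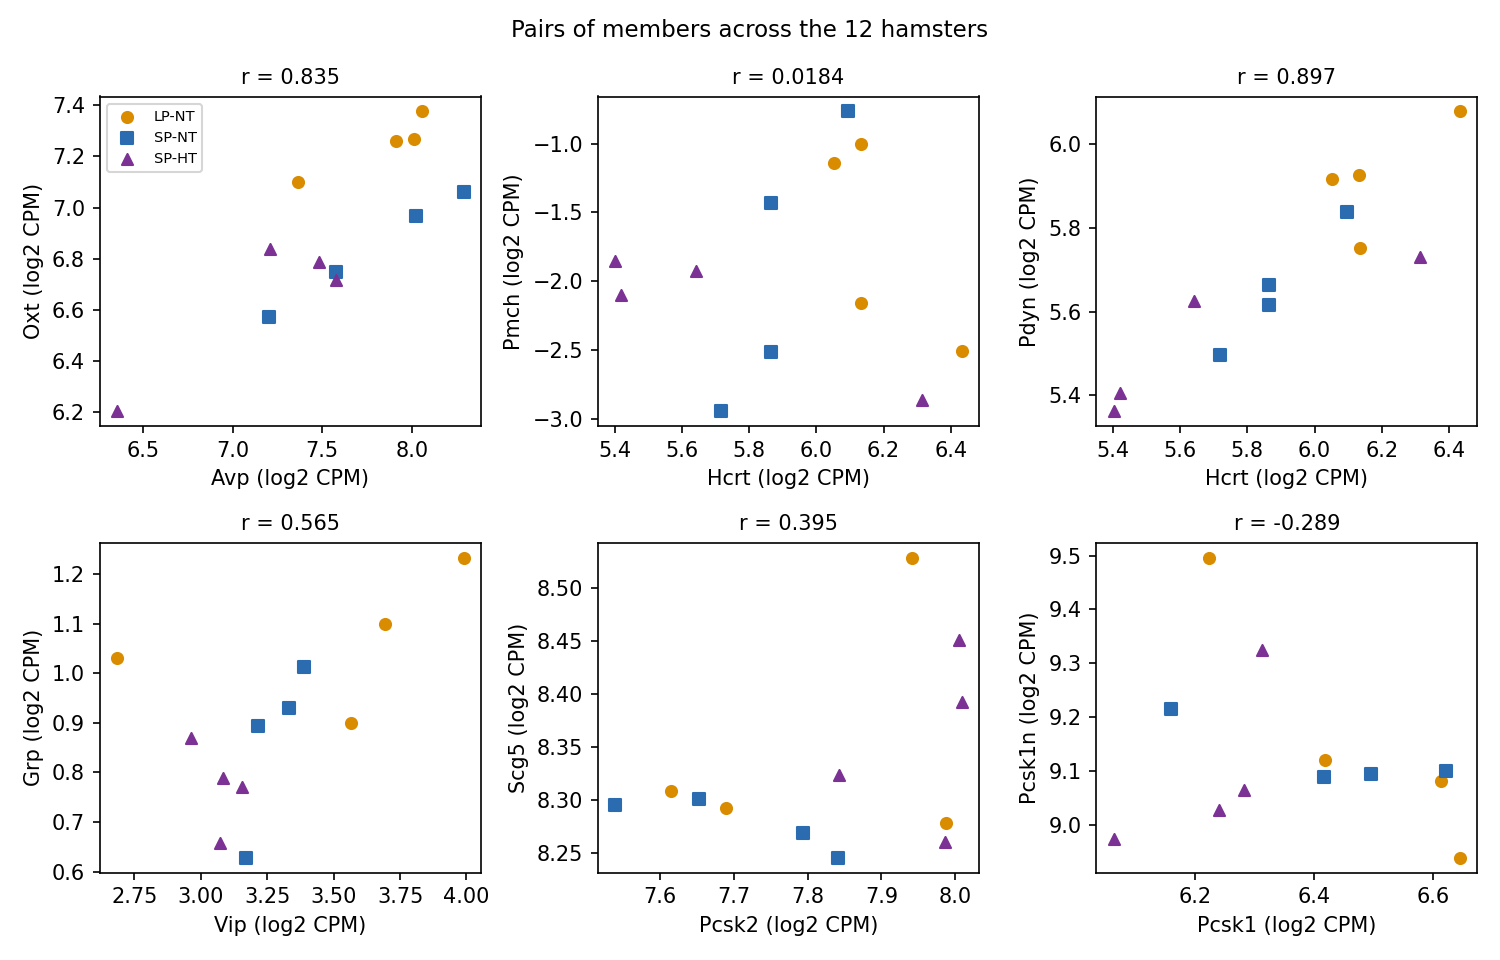
Log2 CPM of the 6 pairs of members across the 12 hamsters, with the Pearson r above each panel and colours and symbols for LP-NT, SP-NT and SP-HT. Avp with Oxt (r = 0.835) and Hcrt with Pdyn (r = 0.897) form narrow bands, and the other 4 pairs scatter.

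Enkephalins, from Penk, act at delta and mu opioid receptors. Penk measured 102, 91.3, 67.4 and 99.5 CPM in LP-NT, 56.2, 69.4, 68.8 and 72.7 CPM in SP-NT, and 57.1, 68.3, 60.7 and 72.4 CPM in SP-HT. LP-NT replicates 01, 02 and 05 lay above all 8 short photoperiod hamsters, and LP-NT replicate 03 lay among them. The edgeR estimate was a log2 fold change of -0.43 for SP-NT over LP-NT (standard error 0.13, adjusted p = 0.913 in edgeR) and -0.47 for SP-HT over LP-NT (standard error 0.13, adjusted p = 0.103 in edgeR). The latter was past the threshold in DESeq2 (adjusted p = 0.0197) and, in edgeR, without LP-NT replicate 03 (log2 fold change -0.59, adjusted p = 0.0385). That was the only 1 of the 8 edgeR fits with a hamster left out to pass, with adjusted p up to 0.256. With all hamsters the adjusted p went from 0.00722 in DESeq2 with effective lengths to 0.132 in edgeR with sex as a covariate. Pnoc (GeneID 18155), the precursor of nociceptin, ranged from 8.16 to 13.7 CPM with overlapping groups, and its group means were 13.9 TPM in LP-NT, 13.8 TPM in SP-NT and 11.9 TPM in SP-HT.

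Among the other sensory and modulatory peptides, Tac1 encodes the tachykinins substance P and neurokinin A. It measured 47.9, 48.5, 48.0 and 48.5 CPM in LP-NT, 34.7, 42.5, 45.2 and 40.7 CPM in SP-NT, and 38.3, 31.3, 35.9 and 46.9 CPM in SP-HT. In CPM the LP-NT hamsters lay close together and above all 8 short photoperiod hamsters. In TPM they ran from 176.7 to 192.7, and SP-NT replicate 37, at 177.1, and SP-HT replicate 33, at 179.5, lay above the lowest of them. Tested over all genes, the log2 fold change was -0.24 for SP-NT over LP-NT (standard error 0.080, adjusted p = 0.913 in edgeR) and -0.34 for SP-HT over LP-NT (standard error 0.11, adjusted p = 0.176 in edgeR).

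Neurotensin, from Nts (GeneID 67405), lowers body temperature when given into the brain. Nts measured 37.3, 22.2, 20.5 and 25.7 CPM in LP-NT, 15.8, 14.7, 16.4 and 20.1 CPM in SP-NT, and 14.0, 21.4, 13.0 and 13.8 CPM in SP-HT. LP-NT replicate 01 was highest, all SP-NT hamsters lay below all LP-NT hamsters, and SP-HT replicate 10 overlapped LP-NT. Its log2 fold change came to -0.66 for SP-NT over LP-NT (standard error 0.18, adjusted p = 0.908 in edgeR) and -0.76 for SP-HT over LP-NT (standard error 0.20, adjusted p = 0.104 in edgeR, 0.014 in DESeq2). Without LP-NT replicate 01 the photoperiod value was -0.45.

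Bdnf (GeneID 12064), a neurotrophin stored in granules and known for restraining feeding, measured 19.1, 18.01, 17.0 and 14.3 CPM in LP-NT, 14.0, 14.2, 13.5 and 13.4 CPM in SP-NT, and 13.8, 12.4, 13.1 and 13.2 CPM in SP-HT. LP-NT replicate 05 lay close above the highest SP-NT hamster, 14.3 against 14.2 CPM, and in CPM no LP-NT hamster overlapped either short photoperiod group. In TPM LP-NT replicate 05, at 19.11, lay below SP-NT replicate 36, at 19.32. Between groups the log2 fold change was -0.31 for SP-NT over LP-NT (standard error 0.098, adjusted p = 0.913 in edgeR) and -0.37 for SP-HT over LP-NT (standard error 0.10, adjusted p = 0.118 in edgeR, 0.043 in DESeq2). Cck, a satiety peptide, ranged from 16.0 to 48.6 CPM, the extremes being LP-NT replicates 05 and 01, and its groups overlapped.

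Neuromedin U, from Nmu (GeneID 56183), is an anorexigenic peptide. Its counts were few, with 10, 10, 8 and 13 expected counts in the LP-NT hamsters, 1, 0, 2 and 6 in the SP-NT hamsters and 1, 3, 1 and 2 in the SP-HT hamsters. Every LP-NT hamster lay above every short photoperiod hamster. Per total count, the LP-NT group had 5.74 times as many Nmu counts as SP-HT, with an exact 95% interval for counting error only from 2.55 to 15.2, and 4.88 times as many as SP-NT, from 2.34 to 11.4. Nmu reached the count filter through LP-NT, the group where it was high, and filterByExpr leaves it out, so its call depends on the filter. For SP-HT over LP-NT the log2 fold change was -2.40 (standard error 0.45, adjusted p = 0.032 in edgeR), and this call was lost without any 1 of the 8 hamsters (adjusted p from 0.0506 to 0.105), while the log2 fold change stayed between -2.78 and -2.18. With all hamsters the call was also lost with the effective length offset (adjusted p = 0.0796 in edgeR) and on the TPM scale, where limma on log2(TPM + 1) gave a log2 fold change of -1.04 (adjusted p = 0.0542). For SP-NT over LP-NT the log2 fold change was -2.24 (standard error 0.60, adjusted p = 0.9 in edgeR), or -1.07 with limma on log2(TPM + 1), and for SP-HT over SP-NT it was -0.17 (95% interval -2.06 to 1.72).

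Among the peptides of the suprachiasmatic clock, Vip (GeneID 22353) synchronises the clock cells. It measured 15.8, 6.34, 11.8 and 12.8 CPM in LP-NT, 10.4, 8.91, 9.19 and 9.97 CPM in SP-NT, and 8.32, 8.39, 7.71 and 8.82 CPM in SP-HT. All SP-HT hamsters lay below all SP-NT hamsters by a narrow margin, 8.82 against 8.91 CPM, and LP-NT spanned both, with the highest and the lowest of the 12 values. The torpor log2 fold change was -0.21 (standard error 0.097, adjusted p = 0.275 in edgeR). Grp (GeneID 225642), which relays light information within the clock, had 50, 45, 39 and 45 counts in the LP-NT hamsters, 47, 35, 41 and 45 in the SP-NT hamsters and 34, 34, 37 and 33 in the SP-HT hamsters. In CPM every SP-HT hamster lay below every LP-NT hamster, 1.74 against 1.78 at the nearest, with a log2 fold change of -0.30 (standard error 0.17, adjusted p = 0.453 in edgeR). Vip and Grp had r = 0.565 across the 12 hamsters (permutation p = 0.0546, adjusted 0.109) and rho = 0.545 (permutation p = 0.0704). Without LP-NT replicate 02, the hamster with the lowest Vip, r was 0.835 and passed the threshold, and without LP-NT replicate 01 it was 0.298. With groups centred on their means it was 0.347 (permutation p = 0.403 within groups, adjusted 0.491).

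Prok2 (GeneID 50501), an output signal of the clock, had 38, 15, 31 and 32 counts in the LP-NT hamsters, 16, 20, 21 and 21 in the SP-NT hamsters and 22, 14, 20 and 19 in the SP-HT hamsters. LP-NT replicates 01, 03 and 05 were above all short photoperiod hamsters and LP-NT replicate 02 was among the lowest, as it was for Vip. It had a log2 fold change of -0.69 for SP-NT over LP-NT (standard error 0.30, adjusted p = 0.913 in edgeR), against -0.42 with limma voom and -0.39 with limma on log2(TPM + 1). Nms (GeneID 433292, neuromedin S) had between 5 and 19 counts per sample, with overlapping groups.

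Of the family of corticotropin-releasing hormone, Crh (GeneID 12918), which drives the pituitary stress axis, had 100, 62, 86 and 96 counts in the LP-NT hamsters, 107, 67, 59 and 111 in the SP-NT hamsters and 66, 66, 38 and 50 in the SP-HT hamsters. The groups overlapped, with SP-HT replicate 26 lowest. In edgeR the log2 fold change was -0.58 for SP-HT over LP-NT (standard error 0.22, adjusted p = 0.245 in edgeR) and -0.46 for SP-HT over SP-NT (95% interval -0.99 to 0.065). The related urocortins were low, with between 16 and 62 counts of Ucn (GeneID 22226) and between 19 and 55 of Ucn3 (GeneID 83428) per sample, and their groups overlapped.

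Gal (GeneID 14419), galanin, which promotes feeding, ranged from 9.96 to 17.4 CPM with overlapping groups, and its group means were 48.0 TPM in LP-NT, 44.7 TPM in SP-NT and 36.7 TPM in SP-HT. The galanin-like peptide Galp (GeneID 232836) had 4, 0, 2 and 4 counts in the LP-NT hamsters, 1, 0, 0 and 1 in the SP-NT hamsters and 1, 0, 0 and 0 in the SP-HT hamsters. Each group held a hamster at 0, so the groups overlapped. Per total count, LP-NT had 9.80 times as many Galp counts as SP-HT, from 10 against 1 count, with an exact 95% counting interval from 1.39 to 425, and 5.36 times as many as SP-NT, from 1.14 to 50.3. The edgeR test between SP-HT and LP-NT gave an adjusted p of 0.28 for Galp (log2 fold change -2.76, standard error 1.14). Without SP-HT replicate 02, which held the only Galp count of its group, the value of -4.35 rests on 0 counts and the prior count and is no estimate of size, and limma on log2(TPM + 1) of all 8 hamsters gave -0.53.

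The remaining precursors are given by their ranges. Adcyap1 (GeneID 11516, PACAP, a relative of Vip that acts in light entrainment and thermoregulation) ranged from 60.9 to 83.9 CPM, and its torpor log2 fold change of -0.0079 had a 95% interval from -0.18 to 0.16. Nucb2 (GeneID 53322, the precursor of the satiety peptide nesfatin-1) ranged from 27.3 to 46.9 CPM, with LP-NT replicate 01 lowest. Nmb (GeneID 68039, neuromedin B) had between 18 and 61 counts and Rln3 (GeneID 212108, relaxin 3, made mostly in the brainstem) between 0 and 3 counts per sample. The groups of all 4 overlapped in all 3 comparisons.

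Among the granins, Vgf is a precursor of peptides that act on energy balance. It measured 499, 474, 401 and 376 CPM in LP-NT, 383, 366, 338 and 376 CPM in SP-NT, and 308, 314, 317 and 349 CPM in SP-HT. SP-HT replicates 02, 10 and 26 lay below all other hamsters, SP-HT replicate 33 overlapped SP-NT, and no SP-HT hamster overlapped LP-NT. From LP-NT to SP-HT Vgf fell by 0.44 on the log2 scale (standard error 0.091, adjusted p = 0.0468 in edgeR). This call held without LP-NT replicate 05 (adjusted p = 0.0352 in edgeR) and was lost without any 1 of the other 7 hamsters (adjusted p from 0.0598 to 0.143), while the log2 fold change in those 7 fits stayed between -0.48 and -0.37. With all hamsters it was lost in edgeR with RLE factors (adjusted p = 0.0512), no count filter (0.0509) or the effective length offset (0.0691), and in limma on log2(TPM + 1) (0.074) and log2(TPM + 0.1) (0.0699). Its log2 fold change was -0.26 for SP-NT over LP-NT (standard error 0.091, adjusted p = 0.913 in edgeR) and -0.18 for SP-HT over SP-NT (standard error 0.055, adjusted p = 0.106 in edgeR, 0.0494 in DESeq2).

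Scg2, the precursor of secretoneurin, measured 708, 662, 666 and 712 CPM in LP-NT, 605, 613, 576 and 620 CPM in SP-NT, and 589, 575, 593 and 639 CPM in SP-HT. All 8 short photoperiod hamsters lay below all LP-NT hamsters, and SP-NT and SP-HT overlapped. The edgeR estimate was a log2 fold change of -0.19 for SP-NT over LP-NT (standard error 0.053, adjusted p = 0.913 in edgeR, 0.0825 in DESeq2) and -0.19 for SP-HT over LP-NT (standard error 0.059, adjusted p = 0.153 in edgeR, 0.034 in DESeq2). For SP-HT over SP-NT it was -0.013, with a 95% interval from -0.12 to 0.092.

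Chgb measured 385, 327, 320 and 342 CPM in LP-NT, 331, 337, 325 and 317 CPM in SP-NT, and 360, 379, 389 and 317 CPM in SP-HT. SP-HT replicates 02, 10 and 26 lay above all SP-NT hamsters, and SP-HT replicate 33 was level with the lowest of them. The torpor log2 fold change was 0.14 (standard error 0.060, adjusted p = 0.252 in edgeR), 0.088 with limma on log2(TPM + 1) and 0.20 without SP-HT replicate 33. Chga ranged from 204 to 285 CPM, Scg3 from 162 to 199 CPM and Scg5 from 304 to 369 CPM, all with overlapping groups, and none of these 3 had an unadjusted p below 0.05 in any comparison.

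Of the convertases, Pcsk2 measured 246, 206, 254 and 196 CPM in LP-NT, 201, 222, 229 and 186 CPM in SP-NT, and 258, 253, 257 and 230 CPM in SP-HT. All SP-HT hamsters lay above all SP-NT hamsters, by 229.5 against 229.1 CPM at the nearest, and LP-NT overlapped both. In TPM SP-HT replicate 33, at 120.1, lay below SP-NT replicates 36 and 37, at 124.6 and 121.9, so the groups overlapped. The torpor log2 fold change was 0.25 (standard error 0.069, adjusted p = 0.087 in edgeR). It was past the threshold in DESeq2 (adjusted p = 0.0173) and in edgeR with sex as a covariate (adjusted p = 0.0453), a fit that takes SP-NT replicate 19 as male as labelled, and over the other settings with all hamsters the adjusted p went up to 0.295.

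Pcsk1 measured 74.7, 97.8, 85.5 and 100.1 CPM in LP-NT, 71.4, 98.4, 85.3 and 90.2 CPM in SP-NT, and 66.8, 77.7, 75.6 and 79.4 CPM in SP-HT. The groups overlapped through LP-NT replicate 01 and SP-NT replicate 19, which were as low as SP-HT. Tested over all genes, the log2 fold change was -0.21 for SP-HT over SP-NT (standard error 0.093, adjusted p = 0.268 in edgeR) and -0.25 for SP-HT over LP-NT (standard error 0.10, adjusted p = 0.26 in edgeR). Pcsk2 TPM over Pcsk1 TPM was 2.58 ± 0.693 for LP-NT hamsters, 2.42 ± 0.301 for SP-NT hamsters and 3.33 ± 0.457 for SP-HT hamsters (SD, n = 4 each), and SP-HT, from 2.85 to 3.95, lay above SP-NT, from 2.04 to 2.69, without overlap. LP-NT, from 1.93 to 3.41, overlapped both. The difference between the convertases was not tested.

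Neither convertase was shown to follow its partner. Pcsk2 and its chaperone Scg5 had r = 0.395 (permutation p = 0.209, adjusted 0.314) and rho = 0.245 (permutation p = 0.445), and Pcsk1 and its inhibitor Pcsk1n had r = -0.289 (permutation p = 0.371, adjusted 0.445) and rho = -0.168 (permutation p = 0.602). Without the 2 hamsters farthest from the median of the convertase, r was 0.411 and -0.436. Cpe ranged from 1458 to 1881 CPM and Pam from 349 to 397 CPM, with overlapping groups. For Cpe the log2 fold change of SP-HT over LP-NT was -0.0029, with a 95% interval from -0.14 to 0.14.

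Hamsters of a group differed more in precursors than in granule genes. For members with a mean of 100 counts or more, the coefficient of variation of CPM within a group, averaged over the 3 groups, had a median of 14.1% over 14 precursors and 6.58% over 11 granins and processing genes, beside 8.27% over the 11853 genes with as many counts. Cck (28.9%), Avp (28.2%) and Nts (22.7%) varied most, and Scg2 (3.91%), Pam (4.30%) and Cpe (4.91%) least. The precursors are also less abundant, and this difference between the lists was not tested.

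**Figure D5:**
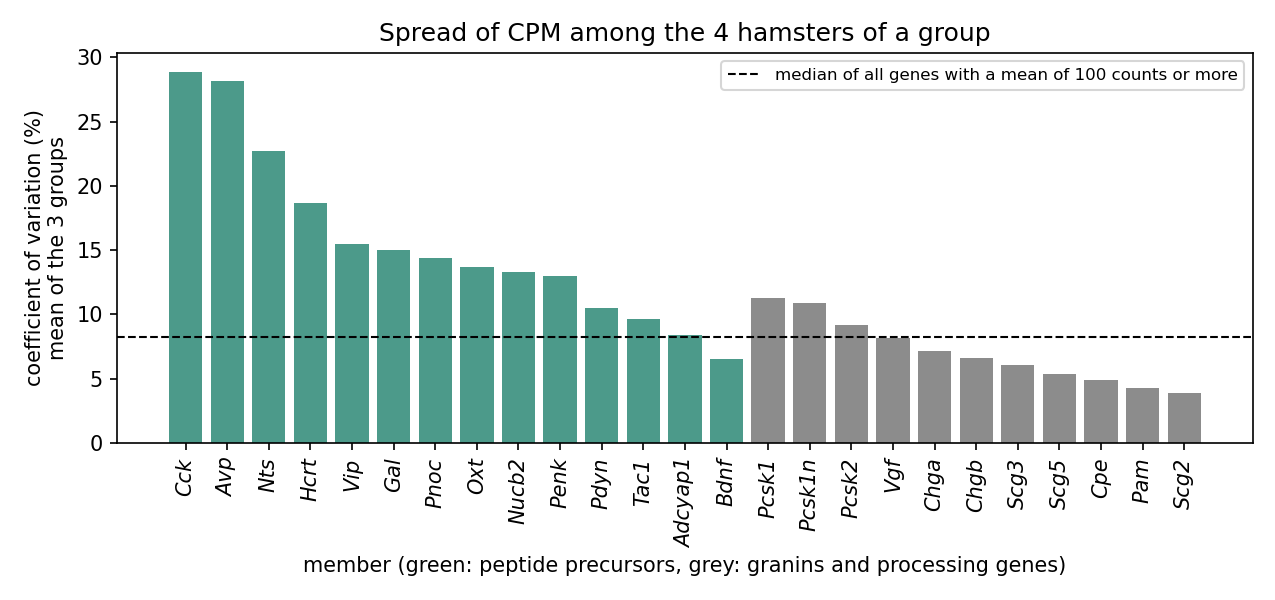
Coefficient of variation of CPM among the 4 hamsters of a group, as the mean of the 3 groups, for the 25 members with a mean of 100 counts or more. Bars are green for peptide precursors and grey for granins and processing genes, and the dashed line is the median over all such genes, 8.27%.

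Between the sexes as labelled, with group in the model, edgeR called 0 of 36 members, against 0% of all 16380 genes, and DESeq2 called 0 members. Only Pcsk1n had an unadjusted p below 0.05, 1 of 36 members, against 4.57% of all genes. Pcsk1n measured 722, 542, 557 and 491 CPM in LP-NT, 594, 549, 544 and 547 CPM in SP-NT, and 503, 536, 522 and 641 CPM in SP-HT. The highest 3 of the 12, LP-NT replicate 01, SP-HT replicate 33 and SP-NT replicate 19, are labelled male, the last of these with the label in doubt, and the sexes overlapped. Its log2 fold change of male over female was 0.17 (standard error 0.076, adjusted p = 0.858 in edgeR), 0.11 without LP-NT replicate 01 and 0.18 with SP-NT replicate 19 left out. Without SP-NT replicate 19 edgeR called 9 genes between the sexes, 0 of them members.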

How the data were processed

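The authors assembled all reads de novo into transcripts, grouped those with the same best mouse protein by mouse GeneID, and quantified each sample with RSEM 1.3.1 (Bowtie 1.3.0, Trim Galore 0.6.6 and FastQC 0.11.9 in the submitters' processing notes, with GRCm39 as build). The deposited tables hold expected counts per GeneID, not normalized, TPM computed by the authors, and an effective length, another deposited value, per sample. Isoforms, and paralogs of the hamster that resemble the same mouse protein, can be joined under a GeneID. The tables pair no names with GeneIDs, so symbols came from the list of members, and the further gene lists drawn up for receptors, transcription factors and cell type markers were not used here.

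For testing, expected counts were rounded to integers, and any GeneID whose rounded counts reached 10 in total across the compared samples entered the test in edgeR 4.0.16 (R 4.3.3, glmQLFit and glmQLFTest, TMM normalization, no covariates except group in the test of sex), with Benjamini-Hochberg adjustment over all genes tested and a threshold of 0.05. The standard error is the log2 fold change over the root of the F statistic. CPM used TMM factors over all 12 samples, and log2 CPM a prior count of 2. DESeq2 1.42.0, limma 3.58.1 (voom with quality weights, and log2 of TPM plus 1 or 0.1 for genes with a mean of at least 0.1 TPM), RLE factors, effective lengths, other count filters, thinned counts, all samples in 1 fit, sex as a covariate and leaving out each hamster were the alternatives. Two-sided permutation tests of correlations used 100000 resamples (numpy 2.4.6), and exact counting intervals scipy 1.17.1.

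Replicates are separate hamsters, and counts of any 2 of a group differed by more than counting error (chi-square over its degrees of freedom of 7.01 or more). By a set rule, every member was named with its level, and values in every hamster with a test were given for members past the adjusted threshold, with groups apart in CPM, or with an unadjusted p below 0.05. The members and lists were chosen with earlier results of these data known.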

Additional observations from a re-analysis of the deposited data

Results flagged for a closer look

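Within each group of 4, the sample farthest out was compared with the others, and 12 of 135 groups of values held a sample whose gap to its nearest neighbour took most of the range. Chance alone gives about 1 in 20 groups. LP-NT replicate 01 was set apart in Scg5, at 369 CPM against 311 to 317 in the other 3 LP-NT hamsters, and in Cpe, at 1881 CPM against 1622 to 1645. LP-NT replicate 02 was set apart in Nmb, at 2.65 CPM against 1.37 to 1.55, and in Ucn, at 2.69 CPM against 0.815 to 1.00. SP-NT replicate 38 was low in Chga, at 204 CPM against 227 to 230, and SP-NT replicate 19 was high in Pcsk1n, at 594 CPM against 544 to 549. In SP-HT, replicate 10 was high in Nts, at 21.4 CPM against 13.0 to 14.0, and low in Prok2, at 0.675 CPM against 0.931 to 0.963. SP-HT replicate 33 was high in Cck, at 35.4 CPM against 25.4 to 26.7, and low in Pcsk2, at 230 CPM against 253 to 258. For Galp and Rln3 the same held at the level of single counts, with 0.0438 CPM of Galp in SP-HT replicate 02 against 0 in the other 3, and 0 CPM of Rln3 in SP-HT replicate 10 against 0.0438 to 0.0490. The part of dissection or of RNA quality in these values was not tested.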

How the results depend on the processing

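Of 651 values of the 33 log2 fold changes given with a test, each under another setting, 0 changed sign. These 33 were chosen in the same data by their p-values or by groups apart in CPM. A change of sign was therefore unlikely from the start, and its absence is no separate support. Of the 651 values, 598 stayed on the same side of the threshold, 35 lost a call and 18 gained one. For torpor, granins and processing genes called went from 0 to 2 in DESeq2, 1 in DESeq2 with effective lengths and 1 with sex as a covariate. For SP-HT against LP-NT, precursors called went from 2 to 5 in DESeq2 and with all 12 samples in 1 fit, 4 in DESeq2 with effective lengths, 1 with RLE factors, filterByExpr or sex as a covariate, and 0 with the effective length offset or limma on log2 TPM with either pseudocount, and with a hamster left out to between 0 and 1. Granins and processing genes called went there from 1 to 2 in both DESeq2 fits and to 0 with RLE factors, the length offset, no count filter or limma on log2 TPM, and to between 0 and 1 with a hamster left out. Over all genes, DESeq2 called 33 for photoperiod against 6, 1017 for torpor against 389, 706 for SP-HT against LP-NT against 221 and 13 for the sexes against 0. With a hamster left out the counts went down to 104 for torpor and 55 for SP-HT against LP-NT, with fewer samples in each fit. For the correlation across hamsters: Hcrt and Pmch, the r of 0.0184 went to -0.0378 on log2(TPM + 1) and -0.220 with centred groups, and between -0.0769 and 0.199 with a hamster left out. The r of Avp and Oxt was between 0.683 and 0.88 with a hamster left out, and that of Vip and Grp between 0.298 and 0.835. The causes were not tested.

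DESeq2 gave no adjusted p for 4 values and 7 had too few counts to be tested. No paired analysis was possible because the groups hold different hamsters, and a replicate number that occurs in more than 1 group names different animals. With 4 hamsters a group and adjusted p-values of the 3 called members close to 0.05, leaving out 1 hamster mostly ended a call, with fewer samples in each fit. The log2 fold changes of SP-HT over LP-NT were then between -0.65 and -0.46 for Oxt, -0.50 and -0.37 for Vgf and -2.78 and -2.18 for Nmu. Pmch, Nmu, Galp and Rln3 have few counts.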
